A study of Mus musculus with 6 samples.

Results

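Cells take up, exchange and recycle amino acids through several families of solute carriers. The genes described here are those whose symbols place them in the families SLC3, SLC6, SLC7, SLC36, SLC38 and SLC43, which leaves out the glutamate and neutral amino acid carriers of the SLC1 family. This rule, which reads the gene symbol and no measured value, found 52 members among the 24214 features in the files: 2 of SLC3, 17 of SLC6, 15 of SLC7, 4 of SLC36, 11 of SLC38 and 3 of SLC43.

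The cells were 393P, a mouse lung adenocarcinoma line with an epithelial character. Of the 6 libraries of total RNA, sequenced on the SOLiD platform, 3 came from cells carrying an empty vector (393P_vector) and 3 from cells with ectopic expression of ZEB1 (393P_ZEB1), a zinc-finger repressor that drives the epithelial-to-mesenchymal transition. Both groups shared the parental line, RPMI-1640 medium with 10% serum and, as stable transfectants, antibiotic selection. The sources do not say whether a line was 1 clone or whether the libraries of a group came from separate transfections or cultures, so the p-values below measure only the spread between these libraries, which may be technical.

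The families work as a network. SLC3 proteins are single-pass heavy chains that carry the SLC7 light chains to the cell surface, where a light chain exchanges an internal amino acid for an external one. The sodium-coupled carriers of SLC38 and SLC6 accumulate glutamine, alanine, glycine, taurine and creatine. Some SLC36 carriers, coupled to protons, and some SLC38 proteins work at the lysosome. SLC43 proteins let large neutral amino acids, or in 1 case nucleobases, pass without an exchange. When amino acids run short, cells translate the transcription factor ATF4, which raises many of these genes, and the lysosomal carriers bear on the growth kinase complex mTORC1.

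Each library held 54442450 to 79158012 counts. Levels are given as CPM, the counts of a gene per 1000000 counts of the library as scaled by the trimmed mean of M values (TMM), and 3 counts, the limit taken for a gene with no reads, corresponded to 0.0361 to 0.0561 CPM. Zeb1 itself was at 21.2, 22.0 and 21.4 CPM in the 393P_vector libraries and 54.9, 48.9 and 51.3 CPM in the 393P_ZEB1 libraries (log2 fold change 1.26, SE 0.10, adjusted p = 6.06e-05), where any transgene reads that map to the mouse gene are included. Vector replicate 3 stood apart from its group: up to 5.51% of genes were 2-fold or more apart between it and another vector library, against 0.0648% between vector replicates 1 and 2, and 0.0936% to 0.18% among the 393P_ZEB1 libraries. Calls of the members that change without it are given both ways. Of the 6 tested epithelial markers 5 fell, their summed level being 4630 to 5290 CPM in 393P_vector and 2750 to 3040 CPM in 393P_ZEB1 (all 6 fell without vector replicate 3), and 6 of 6 mesenchymal markers rose, summing to 7620 to 8390 and 10700 to 12000 CPM. Alveolar and club cell markers summed to no more than 0.198 CPM in any library, with the club cell marker Scgb1a1 at 0 in all 6. In bulk samples, fewer cells of a type and less RNA per cell cannot be told apart.

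In 393P_ZEB1 cells, the carriers of small neutral amino acids at the cell surface, Slc38a1 and Slc38a2, fell, as did the light chain gene Slc7a6. The cystine carrier gene Slc7a11 and the SLC36 family gene Slc36a4 rose. In all, 25 of the 52 members had enough counts for the test, and 5 of them rose and 8 fell (adjusted p below 0.05, edgeR quasi-likelihood test with Benjamini-Hochberg adjustment over 13892 tested genes, the test behind every adjusted p here). Among all tested genes 18.3% rose and 19.3% fell. The members that rose were Slc36a4, Slc7a2, Slc7a11, Slc38a7 and Slc6a9, and those that fell were Slc43a3, Slc7a3, Slc3a1, Slc38a1, Slc6a8, Slc7a4, Slc38a2 and Slc7a6. Slc43a3, Slc7a3 and Slc3a1 reached the count filter only through the 393P_vector libraries and so had to differ. The count of 8 is therefore not read against the background. The median log2 fold change was 0.02 over the 25 tested members and -0.02 over all tested genes. Without vector replicate 3, 6 members rose and 9 fell, and of all tested genes 26.2% rose and 26.8% fell. The 9 again include Slc43a3, Slc7a3 and Slc3a1, so that count is not read against its share either.

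The 3 libraries of 1 group did not overlap the 3 of the other in 16 of the 25 tested members. The 393P_ZEB1 libraries all lay above in 7 members and all below in 9, and the corresponding shares of all tested genes were 26.3% and 26.5%. The 9 include Slc43a3, Slc7a3 and Slc3a1, which had to lie below given the count filter, so that count is not read against its share. All 13 called members were among these 16, and the other 3 were Slc36a1, Slc38a10 and Slc38a9.

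**Figure D1:**
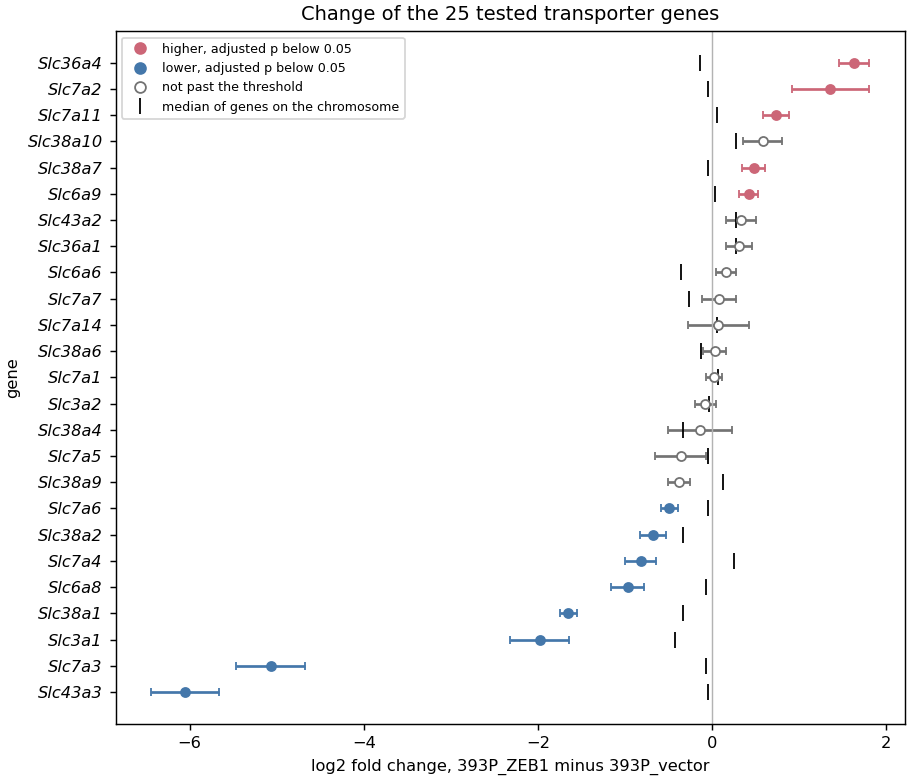
Log2 fold change of each of the 25 tested members, 393P_ZEB1 over 393P_vector, with its standard error from the edgeR fit and, as a black tick, the median of all tested genes on its chromosome. Filled points passed the test, open points did not. Slc43a3 (-6.05) and Slc7a3 (-5.07) lie farthest to the negative side and Slc36a4 (1.63) farthest to the positive side.

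The heavy chain of the surface exchangers is encoded by Slc3a2 (4F2hc or CD98). Its level was 240, 261 and 207 CPM in 393P_vector and 237, 219 and 213 CPM in 393P_ZEB1. The groups overlapped, and the log2 fold change was -0.08 (SE 0.12, adjusted p = 0.627 by edgeR). The other heavy chain gene, Slc3a1, known from the uptake of cystine and basic amino acids in the kidney, was near the limit of detection, at 0.459, 0.459 and 0.554 CPM in 393P_vector and 0.131, 0.072 and 0.164 CPM in 393P_ZEB1. It fell by 1.98 on the log2 scale (SE 0.34, adjusted p = 0.00309 by edgeR). Slc3a1 passed the count filter only through the 393P_vector libraries, so the direction of this call was fixed in advance. The 99 counts in 393P_vector and 21 in 393P_ZEB1 gave a depth-adjusted ratio of 4.04 (95% interval 2.5 to 6.81, counting error only). Slc3a1 overlaps 765 bases of Prepl on the opposite strand, and since the strand setting of the counting is not given in the sources used here, reads of the pair cannot be told apart there. Prepl, with 16537 counts, had a log2 fold change of -0.69.

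Of the light chains, Slc7a11 (xCT, chr3:50364936-50443613 in GRCm38), which imports cystine in exchange for glutamate, rose. It was at 37.7, 34.1 and 47.5 CPM in 393P_vector and 74.1, 65.5 and 60.3 CPM in 393P_ZEB1, with no overlap. The means were 39.8 ± 6.93 and 66.6 ± 7 CPM (SD, n = 3 each), a 1.68-fold difference (log2 fold change 0.74, SE 0.15, adjusted p = 0.00713 by edgeR). Vector replicate 3 was the highest of its group, and without it the log2 fold change was 0.89. Slc7a11 is a known target of ATF4, which binds the C/EBP-ATF composite element with the letters TGATGNAA, or TTNCATCA on the other strand. The promoter window of Slc7a11 (RefSeq, GRCm38.p6, 250 bases before to 50 after the start site) held the element in both orientations, 66 and 47 bases before the start site. The stretch that holds both is shown because Slc7a11 was 1 of only 2 members with a match. The window reads, at chr3:50443641-50443691 on the minus strand, with the matches in capitals:
Slc7a11: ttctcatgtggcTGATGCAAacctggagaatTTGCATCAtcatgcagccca

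The other member was Slc7a7, whose window also held 2 matches, beginning 141 and 1 bases before the start site. Of 27025 genes with a window, 1219 (4.51%) had a match, against 2 of the 35 members with a window. Slc7a7 (y+LAT1), which exports basic amino acids in exchange for neutral ones, was at 3.45, 4.01 and 5.04 CPM in 393P_vector and 4.09, 4.72 and 4.44 CPM in 393P_ZEB1. The groups overlapped (log2 fold change 0.08, SE 0.19, adjusted p = 0.761 by edgeR). A match of letters is a description of the window and not a measure of binding. Slc7a7 overlaps 228 bases of Oxa1l on the opposite strand, a gene with 26593 counts, so its level carries the same doubt as that of Slc3a1.

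Slc7a6 (y+LAT2, chr8:106168875-106198704), a light chain of the same class as Slc7a7, was the most abundant SLC7 transcript per length in 393P_vector and fell. Its level was 168, 169 and 191 CPM in 393P_vector and 129, 129 and 117 CPM in 393P_ZEB1. No library overlapped, and the fold of 0.71 (log2 fold change -0.49, SE 0.10, adjusted p = 0.00691 by edgeR) became -0.43 on the log2 scale without vector replicate 3. The neighboring gene Slc7a6os, whose log2 fold change was -0.06 (adjusted p = 0.752 by edgeR), did not pass the test, and Esrp2, a splicing regulator of epithelial cells that lies nearby, fell by 1.35 on the log2 scale (adjusted p = 9.85e-05 by edgeR).

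Slc7a5 (LAT1), the main carrier of leucine and other large neutral amino acids in many tumors, differed most between vector replicate 3 and the rest of its group. Its level was 43.6, 40.2 and 88.4 CPM in 393P_vector and 47.4, 44.5 and 42.0 CPM in 393P_ZEB1. The log2 fold change was -0.36 (SE 0.29, adjusted p = 0.354 by edgeR) with all libraries and 0.09 without vector replicate 3 (adjusted p = 0.438 by edgeR). The sign thus depended on that library, and Slc7a5 passed the test in neither case. Slc7a8 (LAT2), with a similar range of substrates, had 3, 7 and 4 counts in 393P_vector and 1, 8 and 6 counts in 393P_ZEB1 and was not tested.

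Within a library, the level of each light chain per kilobase of exon can be set against that of its heavy chain. The ratio of Slc7a11 to Slc3a2 was 0.0504, 0.0419 and 0.0734 in 393P_vector and 0.1, 0.0958 and 0.0904 in 393P_ZEB1, every 393P_ZEB1 library above every 393P_vector library. The ratio of Slc7a6 to Slc3a2 went the other way, from 0.556, 0.513 and 0.73 in 393P_vector to 0.43, 0.466 and 0.435 in 393P_ZEB1. The ratio of Slc7a5 to Slc3a2 was 0.153, 0.13 and 0.359 in 393P_vector and 0.168, 0.171 and 0.166 in 393P_ZEB1, so the groups overlapped because of vector replicate 3. Summed over the light chains, the level was 69.8 ± 12.1 CPM per kilobase in 393P_vector and 55.4 ± 3.14 in 393P_ZEB1 (SD, n = 3 each), beside 80.2 ± 9.11 and 75.8 ± 4.23 for the heavy chains. The sum of the light chains was lower in every 393P_ZEB1 library, at 51.9 to 58.0, than in any 393P_vector library, at 62.3 to 83.8. The sums of the heavy chains overlapped. Single light chains did not all follow their sum. The mean per kilobase went from 47.3 to 33.6 for Slc7a6 and from 16.4 to 12.7 for Slc7a5. It went from 4.32 to 7.23 for Slc7a11 and from 1.67 to 1.77 for Slc7a7.

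The cationic carriers of SLC7 bring in arginine, lysine and ornithine without a heavy chain. Slc7a1 (CAT1), which nearly all cells use, was at 292, 284 and 300 CPM in 393P_vector and 284, 306 and 298 CPM in 393P_ZEB1. The groups overlapped, with a log2 fold change of 0.02 (SE 0.09, adjusted p = 0.877 by edgeR). The other cationic carriers were far lower and moved in different directions. Slc7a3 (CAT3, chrX:101079221-101085352) was at 2.54, 2.52 and 3.97 CPM in 393P_vector and 0.112, 0.036 and 0.115 CPM in 393P_ZEB1. It fell by 5.07 on the log2 scale (SE 0.40, adjusted p = 4.97e-05 by edgeR), and 622 counts against 15 gave a depth-adjusted ratio of 35.5 (95% interval 21.4 to 63.9). Snx12, next to it, had a log2 fold change of -0.05 (adjusted p = 0.726 by edgeR).

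Slc7a4, a relative of the cationic carriers whose substrate is not settled, was at 4.45, 4.37 and 3.78 CPM in 393P_vector and 2.02, 2.59 and 2.51 CPM in 393P_ZEB1. It fell by 0.82 on the log2 scale (SE 0.18, adjusted p = 0.00825 by edgeR). Slc7a2 (CAT2), known for supplying arginine to activated macrophages and liver, was at 0.230, 0.051 and 0.181 CPM in 393P_vector and 0.430, 0.396 and 0.377 CPM in 393P_ZEB1. Its 31 and 68 counts gave a depth-adjusted ratio of 2.56 in favor of 393P_ZEB1 (95% interval 1.65 to 4.05), and the log2 fold change was 1.36 (SE 0.44, adjusted p = 0.0455 by edgeR). This call was lost in 4 of the 6 fits that left out 1 library, with adjusted p = 0.0655 without vector replicate 2 and 0.128, 0.109 and 0.101 by edgeR without ZEB1 replicates 1, 2 and 3. Summed over Slc7a1, Slc7a2 and Slc7a3, the level was 41.8, 40.7 and 43.5 CPM per kilobase in 393P_vector and 39.7, 42.8 and 41.7 in 393P_ZEB1, so the changes of the lesser carriers did not separate the groups. Slc7a14, a lysosomal relative, lay between 0.181 and 0.306 CPM in all 6 libraries (log2 fold change 0.07, adjusted p = 0.894 by edgeR).

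**Figure D2:**
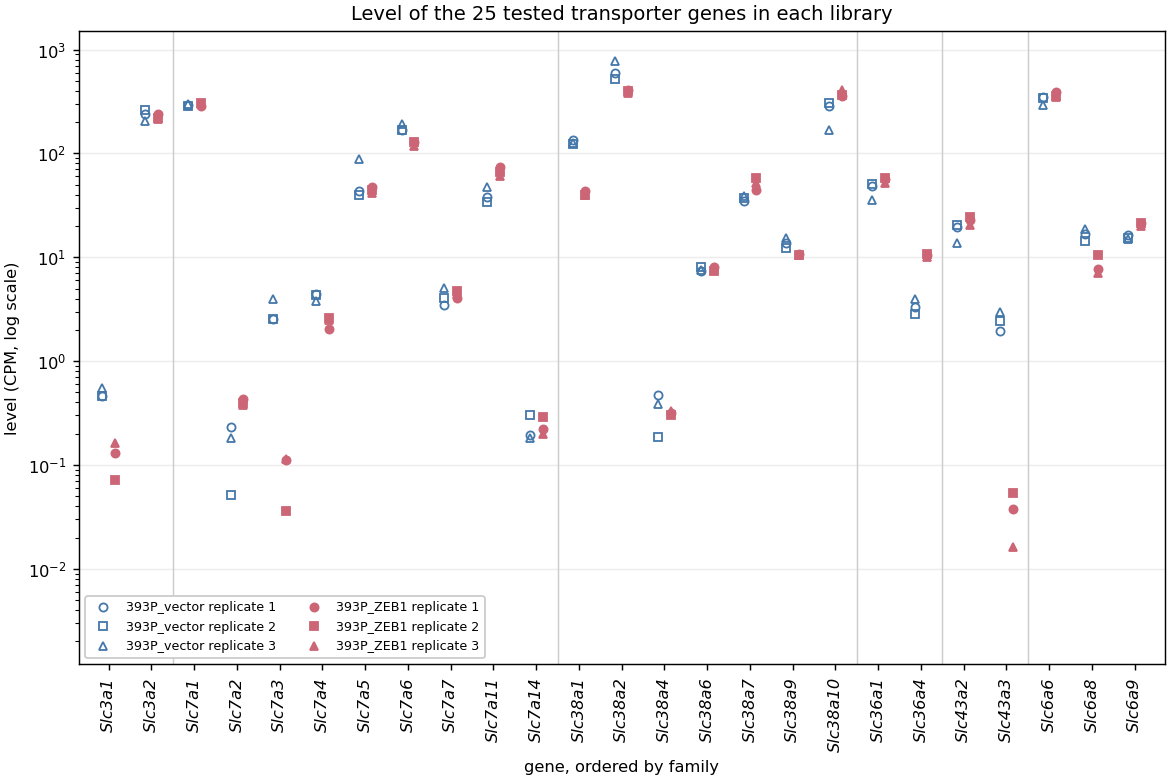
Level of each tested member in each library (CPM, log axis), ordered by family, with open blue symbols for 393P_vector and filled red symbols for 393P_ZEB1 libraries. Slc38a2 has the highest mean in both groups, and the points of Slc43a3 and Slc7a3 separate most, from 2.46 and 3.01 CPM on average in 393P_vector to 0.0359 and 0.0876 CPM in 393P_ZEB1.

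SLC38 carried the largest share of the members' transcripts. Slc38a1 and Slc38a2 (SNAT1 and SNAT2) take up glutamine, alanine and serine together with sodium. Slc38a1 (chr15:96571418-96642913, GRCm38, the build of all positions here) was at 135, 122 and 127 CPM in 393P_vector and 43.2, 40.0 and 39.7 CPM in 393P_ZEB1, with a wide gap between the groups. The means of 128 ± 6.69 and 41.0 ± 1.95 CPM (SD, n = 3 each) gave a fold of 0.32 (log2 fold change -1.65, SE 0.10, adjusted p = 1.21e-05 by edgeR). Leaving out any 1 library moved the log2 fold change no further than -1.68 to -1.60.

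Slc38a2 (chr15:96687392-96699698), the member that cells raise when amino acids are scarce, was at 601, 518 and 771 CPM in 393P_vector and 404, 396 and 383 CPM in 393P_ZEB1. The 393P_vector libraries varied widely but stayed above all 393P_ZEB1 libraries. The fold was 0.626 (log2 fold change -0.68, SE 0.15, adjusted p = 0.0109 by edgeR). It was -0.51 on the log2 scale without vector replicate 3 (adjusted p = 0.000599 by edgeR) and no longer passed without ZEB1 replicate 3 (-0.64, adjusted p = 0.0538 by edgeR). Slc38a1 and Slc38a2 lie 44479 bases apart on chromosome 15, whose tested genes had a median log2 fold change of -0.33, and an effect shared by the chromosome in these lines cannot be told apart from one on the genes. Slc38a4, on the same chromosome, was at 0.187 to 0.477 CPM in 393P_vector and 0.306 to 0.328 CPM in 393P_ZEB1 (log2 fold change -0.14, adjusted p = 0.788 by edgeR).

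The balance within the pair moved, since Slc38a1 fell by more than Slc38a2. Per kilobase, Slc38a2 exceeded Slc38a1 by a ratio of 8.07, 7.71 and 11 in the 393P_vector libraries and of 17.0, 18.0 and 17.5 in the 393P_ZEB1 libraries. The pair summed to 147, 127 and 182 CPM per kilobase in 393P_vector and 92.8, 90.7 and 87.7 in 393P_ZEB1. That was 31.3% of the summed level of all members in 393P_vector and 20.5% in 393P_ZEB1.

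ZEB1 binds E-boxes with the letters CACCTG, or CAGGTG on the other strand. Among the members that fell, 3 had a RefSeq promoter window, and 2 of them, Slc38a2 and Slc7a6, held such an E-box. None of the 4 members that rose and had a window held it. Over all members with a window the count was 11 of 35, and over all genes 6098 of 27025 (22.6%). The 2 that fell are shown beside 2 tested members that did not pass and held the same letters, Slc36a1 and Slc38a9, each as 30 bases with the E-box in capitals, at chr15:96699783-96699812 on the minus strand, chr8:106168648-106168677 on the plus strand, chr11:55204245-55204274 on the plus strand and chr13:112660572-112660601 on the plus strand:
Slc38a2: ggaggcggagccCAGGTGctgttgatacac
Slc7a6: gagtgtccatccCAGGTGagggtgaccgca
Slc36a1: gctgacggccgcCAGGTGgcgctgcagaac
Slc38a9: cagatgttcgagCACCTGctcagcgacccc

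These E-boxes began 72, 194, 83 and 182 bases before the start sites of Slc38a2, Slc7a6, Slc36a1 and Slc38a9. The windows thus hold the same letters in members that fell and in members that did not pass the test, and binding was not measured here. Of the other members that fell, Slc3a1 had a window without these letters, and Slc38a1, Slc43a3, Slc6a8, Slc7a3 and Slc7a4 had no window.

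**Figure D3:**
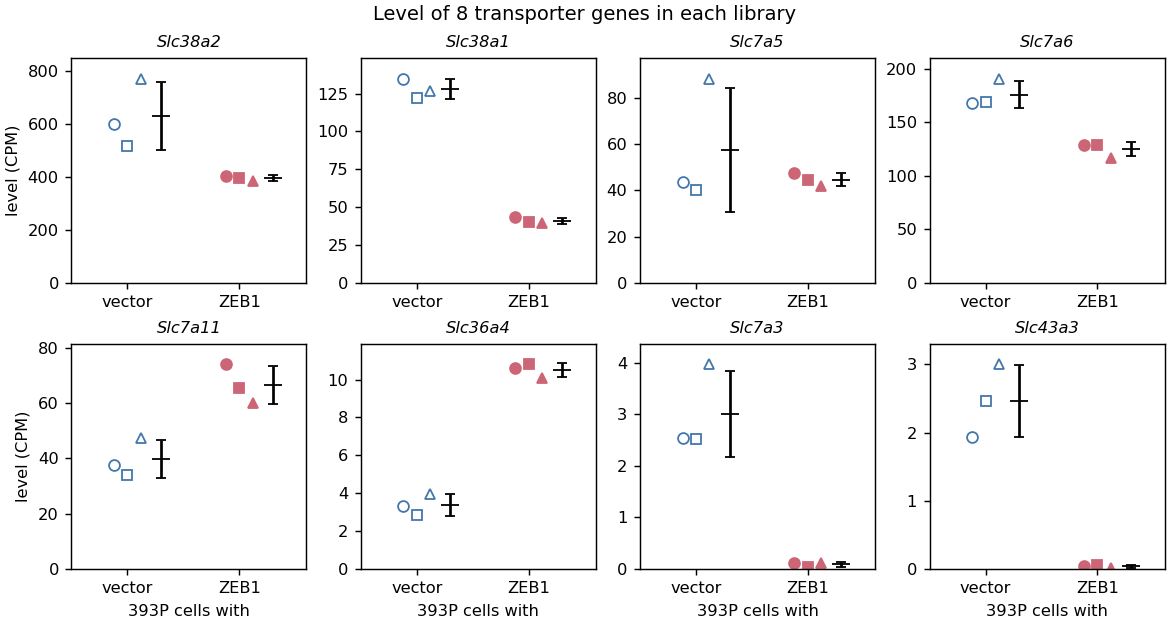
Level in each library (CPM) of 8 members, 393P_vector (open blue) beside 393P_ZEB1 (filled red), with circles, squares and triangles for replicates 1, 2 and 3 and the mean and SD in black. The Slc38a1 points fall from 122 to 135 CPM to 39.7 to 43.2 CPM, and the single high 393P_vector point of Slc7a5 (88.4 CPM) is replicate 3.

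The remaining SLC38 members act mostly inside the cell. Slc38a7 (SNAT7), which releases glutamine and asparagine from the lysosome, was at 35.0, 36.8 and 38.8 CPM in 393P_vector and 44.4, 57.7 and 52.3 CPM in 393P_ZEB1. Its log2 fold change was 0.48 (SE 0.13, adjusted p = 0.0204 by edgeR). The groups did not overlap, but the call was lost in 4 of the 6 fits that left out 1 library: adjusted p by edgeR was 0.075 and 0.0533 without vector replicates 1 and 2, and 0.0877 and 0.0731 without ZEB1 replicates 2 and 3. Slc38a9, the lysosomal carrier that reports arginine to mTORC1, was at 13.7, 12.3 and 15.3 CPM in 393P_vector and 10.7, 10.5 and 10.6 CPM in 393P_ZEB1. Every 393P_ZEB1 library was below every 393P_vector library, yet the log2 fold change of -0.38 (SE 0.13) had an adjusted p of 0.0556 by edgeR. Without vector replicate 3 it was -0.30 and passed (adjusted p = 0.047 by edgeR).

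Slc38a10, an intracellular carrier of glutamine and other neutral amino acids, was at 283, 308 and 168 CPM in 393P_vector and 359, 367 and 408 CPM in 393P_ZEB1. The low value was again vector replicate 3. The log2 fold change was 0.58 (SE 0.22, adjusted p = 0.0702 by edgeR) with all libraries. It passed both without vector replicate 3, at 0.35 (adjusted p = 0.0056 by edgeR), and without vector replicate 2, at 0.75 (adjusted p = 0.0373 by edgeR). The tested genes of its chromosome, 11, had a median log2 fold change of 0.27 with all libraries. Slc38a6 had group means of 7.60 ± 0.344 and 7.77 ± 0.328 CPM (SD, n = 3 each), with a log2 fold change of 0.03. Summed per kilobase over the family, SLC38 was at 214, 200 and 230 CPM in 393P_vector and 177, 180 and 183 CPM in 393P_ZEB1, or 44.3% and 40.9% of the members' total.

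Some SLC36 carriers move small neutral amino acids with protons out of lysosomes and, in some tissues, across the cell surface. Slc36a4 (PAT4, chr9:15709769-15738789), which binds proline and tryptophan with high affinity, was at 3.34, 2.82 and 3.96 CPM in 393P_vector and 10.6, 10.8 and 10.1 CPM in 393P_ZEB1. It rose 3.10-fold (log2 fold change 1.63, SE 0.17, adjusted p = 0.000201 by edgeR), and the log2 fold change lay between 1.52 and 1.77 whichever library was left out. Slc36a1 (PAT1) was at 48.5, 50.3 and 35.3 CPM in 393P_vector and 56.8, 57.8 and 51.6 CPM in 393P_ZEB1. The groups did not overlap, but the log2 fold change of 0.31 (SE 0.15) had an adjusted p of 0.149 by edgeR, beside a median of 0.27 for the tested genes of its chromosome, 11. The family summed to 10.3 ± 1.27 CPM per kilobase in 393P_vector and 16.0 ± 0.805 in 393P_ZEB1 (SD, n = 3 each).

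In SLC43, the strongest change of all members was in Slc43a3 (chr2:84936646-84958509), known as a carrier of purine nucleobases and not of amino acids. It was at 1.93, 2.46 and 3.00 CPM in 393P_vector and 0.0374, 0.054 and 0.0164 CPM in 393P_ZEB1, where it was at or near the 3-count limit. It fell by 6.05 on the log2 scale (SE 0.39, adjusted p = 1.77e-05 by edgeR). With 503 counts against 6, the depth-adjusted ratio was 71.8 (95% interval 32.8 to 197).

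None of the tested genes nearest to Slc43a3 passed the test. The values were 0.03 on the log2 scale for Ssrp1 (adjusted p = 0.883 by edgeR), -0.45 for P2rx3 (0.333) and 0.09 for Tnks1bp1 (0.826). Slc43a1 (LAT3), 73060 bases away, had 6, 11 and 10 counts in 393P_vector and 5, 9 and 3 counts in 393P_ZEB1 and was not tested. Slc43a2 (LAT4), which carries branched-chain amino acids and phenylalanine, was at 19.5, 20.4 and 13.7 CPM in 393P_vector and 22.7, 24.5 and 20.3 CPM in 393P_ZEB1. The lowest 393P_ZEB1 library was just under the highest 393P_vector library. The log2 fold change was 0.33 (SE 0.17, adjusted p = 0.172 by edgeR), beside a median of 0.27 for chromosome 11, where Slc43a2 lies.

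SLC6 is best known for the neurotransmitter carriers, and in these cells 14 of its 17 members were too low to test. The exceptions were carriers of taurine, creatine and glycine. Slc6a6, the taurine carrier, was at 350, 343 and 293 CPM in 393P_vector and 392, 360 and 348 CPM in 393P_ZEB1 (log2 fold change 0.16, SE 0.11, adjusted p = 0.302 by edgeR). Its groups overlapped. Slc6a8, the creatine carrier (chrX:73673133-73682500), fell from 16.6, 14.3 and 18.8 CPM in 393P_vector to 7.79, 10.5 and 7.09 CPM in 393P_ZEB1 (log2 fold change -0.97, SE 0.19, adjusted p = 0.00548 by edgeR). Near it on the X chromosome, Dusp9 fell by 1.93 on the log2 scale (adjusted p = 1.07e-05 by edgeR).

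Slc6a9 (GlyT1), the glycine carrier, was at 16.5, 15.4 and 14.9 CPM in 393P_vector and 21.5, 21.5 and 19.8 CPM in 393P_ZEB1. The difference was small but the groups did not overlap (log2 fold change 0.42, SE 0.11, adjusted p = 0.0226 by edgeR). It no longer passed without vector replicate 1 or 2 (adjusted p = 0.0548 and 0.0659 by edgeR) or without ZEB1 replicate 1, 2 or 3 (0.0689, 0.0869 and 0.052). Slc6a9 overlaps 46 bases of Ccdc24 on the opposite strand. Slc6a14, a broad carrier that also takes up arginine, had 0, 5 and 7 counts in 393P_vector and 1, 1 and 3 counts in 393P_ZEB1.

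The 27 members that were not tested had 0 to 17 counts in any library, at most 0.205 CPM, and at this depth only a large difference in them could have been detected. Among them, the 393P_ZEB1 libraries all lay above in CPM for Slc6a15, with 1, 7 and 7 counts in 393P_vector and 7, 11 and 8 counts in 393P_ZEB1. They all lay below for Slc6a18, with 3, 5 and 5 counts in 393P_vector and 1, 1 and 2 counts in 393P_ZEB1. The share of all untested features without overlap was not determined. At 1 to 11 counts, neither gene is therefore read as differing between the groups. Beside Slc7a8, Slc43a1 and Slc6a14, the untested members included Slc36a2 and Slc36a3, Slc38a3, Slc38a5, Slc38a8 and Slc38a11, Slc7a9, Slc7a10, Slc7a12, Slc7a13 and Slc7a15, and the SLC6 members Slc6a2 to Slc6a5, Slc6a7, Slc6a11 to Slc6a13, Slc6a15 and Slc6a17 to Slc6a19. Among them were the partner of Slc3a1 in the kidney (Slc7a9), the carriers of noradrenaline, dopamine and serotonin (Slc6a2, Slc6a3 and Slc6a4) and the neutral amino acid carrier of gut and kidney (Slc6a19).

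Set in order per kilobase of exon, the most abundant members in 393P_vector were Slc38a2 (137 ± 28.0 CPM per kilobase), Slc3a2 (80 ± 9.13), Slc6a6 (53.4 ± 5.02), Slc7a6 (47.3 ± 3.46), Slc38a10 (46.9 ± 13.9) and Slc7a1 (40.7 ± 1.08), each as the mean and SD of 3 libraries. Slc6a6, Slc7a6 and Slc38a10 lay within each other's spread. In 393P_ZEB1 the order was Slc38a2 (85.5 ± 2.38), Slc3a2 (75.7 ± 4.23), Slc38a10 (70.1 ± 4.82), Slc6a6 (59.6 ± 3.72), Slc7a1 (41.3 ± 1.57) and Slc7a6 (33.6 ± 1.80). Slc3a2 and Slc38a10 overlapped there within their SDs. Slc38a2 led in both groups, and its share of the members' summed level was 28.2% in 393P_vector and 19.4% in 393P_ZEB1.

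All members together summed to 483, 472 and 498 CPM per kilobase in 393P_vector and 448, 443 and 433 in 393P_ZEB1. The means were 484 ± 13.2 and 441 ± 7.78 (SD, n = 3 each). The 393P_ZEB1 libraries were thus all below the 393P_vector libraries, and the difference of the means was smaller than that of the sum of Slc38a1 and Slc38a2 alone, which went from 152 ± 28.2 to 90.4 ± 2.57. The cationic carriers and the heavy chains overlapped between the groups in their summed levels.

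**Figure D4:**
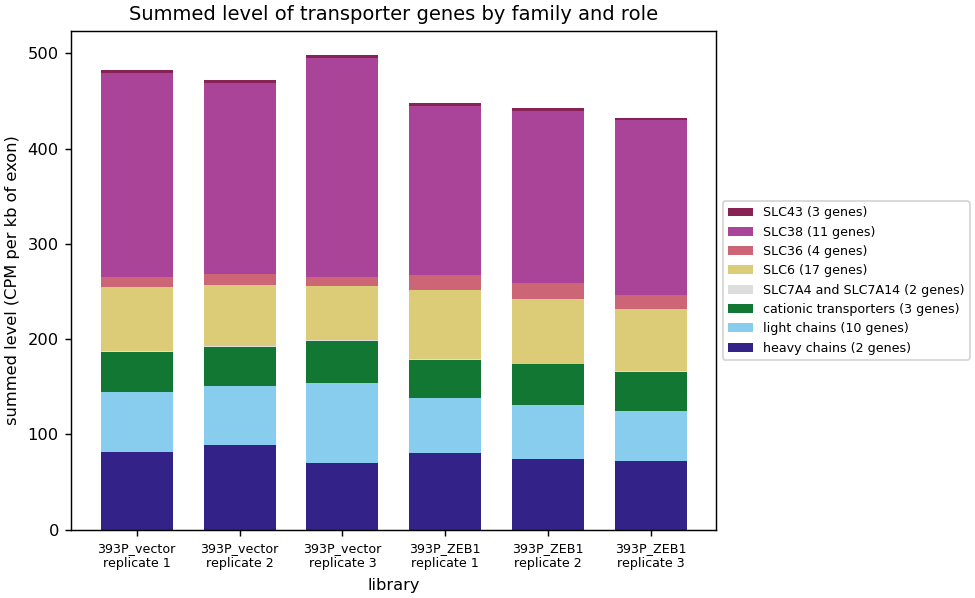
Summed level of the members of each family or role (CPM per kilobase of exon), stacked for each of the 6 libraries. SLC38 is the largest group at 200 to 230 in 393P_vector and 177 to 183 in 393P_ZEB1, and SLC36 is higher in 393P_ZEB1 at 15.1 to 16.6 than in 393P_vector at 8.81 to 11.1.

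The lines differed along whole chromosomes as well, and 10 of the tested members lay on chromosomes whose median log2 fold change was more than 0.2 from zero. For Slc7a4 on chromosome 16 (median 0.25) the difference from that median was -1.07, wider than its log2 fold change. The median of chromosome 17, which holds Slc3a1, was -0.43. Chromosomes 9 and 3, with Slc36a4 and Slc7a11, had medians of -0.14 and 0.06, opposite in sign or close to zero beside the rise of these genes. The cause of the chromosome medians was not tested.

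Beyond the carriers, genes that answer to or use amino acids were examined as lists chosen with earlier results of these data known. Of 20 genes of the amino acid response, that is Atf4 and its known targets, 6 rose, 1 fell and 13 did not pass the test, with a median log2 fold change of -0.07. With all libraries, 18.3% of all tested genes rose and 19.3% fell, which is the background for such counts in every list here. The called genes with the widest changes were Pycr1, an enzyme of proline synthesis (log2 fold change 1.27, adjusted p = 0.000907 by edgeR), Ddit4, an inhibitor of mTORC1 (-1.03, adjusted p = 0.00272), and Cth, which makes cysteine (0.88, adjusted p = 0.000851). Atf4 itself had a log2 fold change of -0.19 (adjusted p = 0.255 by edgeR), and -0.30 without vector replicate 3 (adjusted p = 0.00573). Without that library, 6 genes of the list rose and 6 fell, beside the same 26.2% and 26.8% of all tested genes, which is the background for the counts without it in the other lists too.

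Of the 35 genes listed for amino acid sensing by mTORC1, 30 were tested, of which 2 rose and 5 fell, with a median of -0.03. Sesn3, a sestrin that restrains mTORC1, fell from 22.8 to 9.80 CPM on average (log2 fold change -1.22, adjusted p = 0.000453 by edgeR). The nuclear pore shares 2 proteins with the GATOR2 complex, and of their genes Sec13 fell by 0.65 on the log2 scale (adjusted p = 0.0383 by edgeR) while Seh1l rose by 0.62 (0.00461), on a chromosome whose median was 0.64. Sec13 lost its call without ZEB1 replicate 1, 2 or 3 (adjusted p = 0.128, 0.108 and 0.111 by edgeR). Without vector replicate 3, 3 genes of the list rose and 8 fell.

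Of 31 tested enzymes of glutamine, branched-chain, arginine, proline, glycine and cysteine metabolism, 6 rose and 8 fell (median -0.12), and 6 rose and 13 fell without vector replicate 3. The called enzymes with the widest changes were Ass1, Arg1 and Gldc. Ass1, which with argininosuccinate lyase remakes arginine from citrulline, was at 4.85 CPM in 393P_vector and 0.0745 CPM in 393P_ZEB1 on average (log2 fold change -5.96, adjusted p = 1.48e-05 by edgeR). The 393P_ZEB1 libraries, at 0.0187, 0.09 and 0.115 CPM, were near the limit of detection. Ass1 passed the count filter only through the 393P_vector libraries, so the direction of its call was fixed in advance. The 8 and 13 enzymes that fell include Ass1, so for this list these counts are not read against the background. Arg1, which splits arginine, fell from 2.47 to 0.303 CPM (-3.01, adjusted p = 5.04e-05 by edgeR). Gldc, of the glycine cleavage system, rose from 3.54 to 21.9 CPM (2.63, adjusted p = 4.68e-06 by edgeR).

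Of the other carriers of amino acids, 14 were tested, and 3 rose and 2 fell (median -0.05), against 3 and 5 without vector replicate 3. The called genes with the widest changes were the vesicular glutamate carriers Slc17a6 and Slc17a8 (log2 fold changes 2.70 and 1.95) and Slc16a10, a carrier of aromatic amino acids (1.24), with adjusted p = 0.000172, 9.41e-06 and 0.0012 by edgeR. In the SLC1 family 5 of 7 genes were tested, of which 2 rose and 1 fell (median 0.16). These were Slc1a3, a glutamate and aspartate carrier (7.13, adjusted p = 3.71e-07 by edgeR), Slc1a4, a carrier of alanine, serine and cysteine (0.38, adjusted p = 0.0156), and Slc1a2, a glutamate carrier (-1.22, adjusted p = 0.0232). Slc1a2 lost its call without vector replicate 1 (adjusted p = 0.0629) or ZEB1 replicate 2 or 3 (0.0912 and 0.0922 by edgeR), and Slc1a4 without ZEB1 replicate 2 or 3 (0.0668 and 0.0666).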

How the data were processed

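The authors deposited 1 file per library with raw read counts on RefSeq features, the exon length of each feature and RPKM values. Coordinates matched GRCm38. The aligner, the counting program and the strand setting are not given in the sources used here. The counts were used for all tests, and the deposited RPKM values only to check the library totals (they implied 99.1% to 99.32% of the summed counts).

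Features were filtered with filterByExpr at its defaults, scaled by TMM and tested with robust quasi-likelihood fits in edgeR 4.0.16 (R 4.3.3) on the 3 against 3 libraries, with no covariate, since the study states no test for these data. P-values were adjusted by Benjamini-Hochberg over 13892 genes, with a threshold of 0.05. SE is the absolute log2 fold change divided by the root of the F statistic. CPM are counts per 1000000 counts of the TMM-scaled library, and levels per kilobase divide CPM by exon length. Ratios of low counts carry exact 95% intervals that cover counting error only. Exact permutation of 3 against 3 libraries cannot go below p = 0.1 and was not used. Chi-square statistics between replicate libraries found no duplicate library. The test was tested on simulated counts.

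Members and lists were chosen with earlier results of these data known. Values in each library were given for every called member and a core set, and for each list the 3 called genes of largest change. Alternatives were limma 3.58.1 voom, DESeq2 1.42.0, DESeq2 size factors, 2 count filters, removal of the 10 most counted features, a replicate block, a threshold of 0.01, a fold test of 1.5 and leaving out each library. Promoter windows came from RefSeq (GRCm38.p6) for 35 of the 52 members, and no protein sequences were used here. Among the untested members, 1 is not reported here by name.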

Additional observations from a re-analysis of the deposited data

How the results depend on the processing

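Of the 13 called members, Slc3a1, Slc36a4, Slc38a1, Slc43a3 and Slc7a3 kept their call under every alternative that gave a value, and Slc6a8, Slc7a11, Slc7a4 and Slc7a6 lost it only in the test against a fold of 1.5. No called member changed direction. Slc3a1, Slc43a3 and Slc7a3 passed the count filter only through the vector libraries, which fixed the direction of their calls in advance. Their kept calls and direction are therefore not read as a sign of stability. Against a fold of 1.5 (edgeR), 1 member was higher and 4 lower, and among all genes 1081 and 1118. The 4 were Slc38a1, Slc3a1, Slc43a3 and Slc7a3, so that count is not read against the one for all genes. In that test the amino acid response had 2 higher, mTORC1 sensing 0 higher (0 at an unadjusted p under 0.05) and 1 lower, the enzymes 5 lower, other carriers 0 lower (1 unadjusted) and SLC1 1 higher and 0 lower (1 unadjusted). At an adjusted p of 0.01, 2 members were higher, and 1584 and 1545 genes in all. The amino acid response then had 3 higher, sensing 1 higher and 2 lower, other carriers 1 lower and SLC1 1 higher and 0 lower by edgeR (1 unadjusted), where DESeq2 and voom at 0.05 each called 1 lower. With limma voom and sample weights, 3977 genes were higher and 4094 lower. The response then had 6 lower, sensing 4 higher and 9 lower, the enzymes 13 lower and other carriers 5 lower, and Slc7a5 changed sign to 0.02. DESeq2 gave 3 lower in the response. With no filter sensing had 1 higher. With at least 10 counts in every library, 5 members were lower, as Slc3a1, Slc43a3 and Slc7a3 were no longer tested, and SLC1 had 1 higher.

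Leaving out 1 library at a time gave 2 to 6 members higher (3 without vector replicate 1 or 2 or ZEB1 replicate 1, 2 without ZEB1 replicate 2 or 3). Of the 14106 to 14208 genes tested in these fits, 1861 to 3700 were higher and 1784 to 3776 lower. The members lower numbered 7 to 9. They include Slc3a1, Slc43a3 and Slc7a3, so their number is not read against that of all genes. The response had 3 to 6 higher and 1 to 6 lower, sensing 1 to 3 higher and 2 to 8 lower, the enzymes 8 to 13 lower, other carriers 1 to 5 lower and SLC1 1 to 2 higher and 0 to 1 lower, the 0 coming without vector replicate 1 or ZEB1 replicate 2 or 3. Members that had not passed changed sign as follows: Slc7a5 ranged from -0.56 to 0.09, Slc3a2 from -0.16 to 0, Slc38a4 from -0.43 to 0.12, Slc7a14 from -0.09 to 0.34 and Slc7a7 from -0.03 to 0.24. The causes were not tested.

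The deviations of same-numbered libraries from their group means had r of 0.279, -0.205 and -0.0377, beside -0.182 to 0.222 for differently numbered libraries. These values cannot settle whether equal numbers share a batch, which the sources do not say. With the replicate block, 3 members were higher, as Slc6a9 (adjusted p = 0.0618) and Slc7a2 (0.0598) did not pass the edgeR test. The block gave 2 lower in the amino acid response, 3 lower in sensing and 1 higher in SLC1. Depth limits the untested members and Slc7a2, Slc3a1 and the 393P_ZEB1 levels of Slc43a3 and Slc7a3.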
